A study of Mus musculus with 2 samples.

Results

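The genes described here encode the subunits of the glutamate and GABA receptors: the AMPA (Gria), kainate (Grik), NMDA (Grin) and delta (Grid) ionotropic glutamate receptors, the metabotropic glutamate receptors (Grm), the GABAA receptors (Gabr) and the GABAB receptors (Gabbr). They were chosen by gene symbol alone, and the symbols matched 47 of the 27998 genes listed in the count matrices. The data are single-cell RNA counts (10x Genomics droplets) from the cerebral cortex of newborn C57BL/6 mice at P0, the day of birth. One library was labelled WT and the other STINGf/f;Nestin-Cre (cKO), in which Cre driven by the Nestin promoter of the neural lineage removes the floxed Tmem173 gene, the gene for the DNA-sensing adaptor STING. The labels name the tissue as telencephalic and give no number of animals per library. The study's text names the control animals of this experiment both wild type and STINGfl/fl, so whether the library labelled WT carried the floxed allele is not settled here. With 1 library per genotype there was no replicate, so no test between genotypes was possible, and every interval below covers the counting of transcripts only.

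AMPA receptors carry fast excitatory transmission, and the Gria2 subunit makes them poorly permeable to calcium. NMDA receptors combine the obligatory GluN1 subunit with GluN2 subunits, of which GluN2B dominates around birth and GluN2A rises later. GABAA receptors are chloride channels usually built of alpha, beta and gamma subunits, and GABA often depolarises immature neurons. Metabotropic glutamate and GABAB receptors signal through G proteins. Glial cells and their precursors carry several of these receptors as well.

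The WT library held 10715 barcodes and the cKO library 9198, with 69554624 and 67448785 UMIs (unique molecular identifiers, 1 per captured transcript). After filters and removal of likely doublets 6400 WT and 5784 cKO cells were kept, with medians of 6476 and 7460.5 UMIs per cell. The libraries shared 19 barcodes, 8 of them among the cells that passed the filters. Tmem173 gave 107 UMIs in the WT cells and 15 in the cKO cells. The WT cells held 9254 UMIs of Y-linked genes and 10 of Xist, against 6 and 67737 in the cKO cells, so sex and genotype cannot be told apart. Of 41 clusters 34 were named from marker lists. The subunits and their partner genes were left out of the clustering, so levels between classes did not define the classes. Cells of the striatal neuron-like class, led by Six3, Penk, Isl1 and Ebf1, were present although the dissected tissue was described as cortex. The clusters left unnamed held 917 of the WT cells and 1214 of the cKO cells, and most of their cells lay in clusters with Sema3c among their leading genes.

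Subunit transcripts were a small part of the RNA. In all kept cells the 47 genes took 17.2 of every 10000 UMIs in the WT library (91133 UMIs) and 13.5 in the cKO library (70854 UMIs). Levels are given as CPM, a gene's UMIs per 1000000 UMIs of the class, with 95% Poisson intervals where a value is described closely. A UMI counts 1 molecule, so CPM was not divided by transcript length. Summed over the 47 genes, the levels were 2139 and 1614 CPM in projection neuron-like cells of the WT and cKO libraries, 1581 and 1452 in interneuron-like cells, 2368 and 1893 in striatal neuron-like cells, 1347 and 825 in radial glia/astrocyte-like cells and 2048 and 1181 in OPC-like cells (oligodendrocyte precursors). Endothelial-like, mural-like and microglia-like cells together gave 124 and 82.7 CPM, the level that free RNA and these cells' own transcripts reach. Fewer subunit transcripts per cell and fewer cells of a subtype inside a class cannot be told apart from these sums.

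All 47 genes were found in the GENCODE M21 annotation (GRCm38) by their identifiers, on 13 chromosomes. The submitters' notes name the build mm9, and the count files hold no coordinates. The genes are long: their median span was 138 kb against 13.9 kb for all listed genes that matched. GABAA genes lie in groups, such as Gabrg1, Gabra2, Gabra4 and Gabrb1 on chromosome 5 (70751047 to 72149037), and Gabre, Gabra3 and Gabrq on the X chromosome (72255999 to 72842602). Gria3 is the fourth X-linked gene of the set. Exons of 14 genes overlapped exons of a gene on the opposite strand and those of 6 a gene on the same strand, and whether the counting used strand is not given in the sources used here. Gabra4 and Gabrb1 are the case where both partners are subunits, since they lie head to head with overlapping exons.

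RefSeq promoter sequences (GRCm38.p6) were at hand for 32 of the 47 genes. Those below are the 250 bases before the annotated start, 5′ to 3′ on the strand of the gene. Gria2 and Gabra5 are shown because their levels differed between the libraries in opposite directions, and Gabra4 and Gabrb1 because they are neighbours that start on opposite strands. Capitals mark the Sp1 box GGGCGG or its reverse complement (the same box on the other strand).
Gria2 (chr3:80802836-80803085, minus strand): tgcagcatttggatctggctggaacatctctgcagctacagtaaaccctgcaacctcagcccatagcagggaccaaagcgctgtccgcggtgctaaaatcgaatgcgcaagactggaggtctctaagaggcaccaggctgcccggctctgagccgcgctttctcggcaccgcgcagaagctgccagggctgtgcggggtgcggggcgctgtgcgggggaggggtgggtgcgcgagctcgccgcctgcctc
Gabra5 (chr7:57510060-57510309, minus strand): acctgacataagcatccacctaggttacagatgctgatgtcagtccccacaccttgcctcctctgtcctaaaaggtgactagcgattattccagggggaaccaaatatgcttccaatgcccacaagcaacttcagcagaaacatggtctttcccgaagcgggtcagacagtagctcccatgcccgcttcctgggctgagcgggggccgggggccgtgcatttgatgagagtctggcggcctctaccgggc
Gabra4 (chr5:71658309-71658558, minus strand): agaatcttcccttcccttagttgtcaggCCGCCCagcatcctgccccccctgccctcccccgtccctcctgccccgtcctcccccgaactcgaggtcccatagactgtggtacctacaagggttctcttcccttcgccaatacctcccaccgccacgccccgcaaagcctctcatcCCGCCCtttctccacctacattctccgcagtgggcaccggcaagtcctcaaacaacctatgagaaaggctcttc
Gabrb1 (chr5:71657671-71657920, plus strand): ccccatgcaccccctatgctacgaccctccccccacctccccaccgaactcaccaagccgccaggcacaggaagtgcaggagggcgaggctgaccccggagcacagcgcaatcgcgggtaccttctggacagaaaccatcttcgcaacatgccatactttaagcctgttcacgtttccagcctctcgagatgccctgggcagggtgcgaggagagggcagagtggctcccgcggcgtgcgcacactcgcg
Searched on both strands, the Sp1 box was present in 18 of the 39 promoters listed for the 32 genes and the TATA box TATAAA in 4. Among 32851 promoters of the same length 32.7% held the Sp1 box and 12.4% the TATA box. Gabra4 held 2 Sp1 boxes, and these letters were not in the windows of Gria2, Gabra5 or Gabrb1.

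Among the AMPA subunits Gria2 had the highest level in each class shown here, except in Cajal-Retzius-like cells of the cKO library, where Gria1 was higher (135 against 121 CPM). It stood at 666 CPM (654 to 677) in WT projection neuron-like cells and 433 (424 to 442) in cKO ones, at 449 and 272 in interneuron-like cells, at 630 and 463 in striatal neuron-like cells, at 295 and 133 in radial glia/astrocyte-like cells, and at 848 and 353 in OPC-like cells. In intermediate progenitor-like cells, the Eomes-expressing precursors of projection neurons, it reached 895 and 401 CPM. The non-neural classes gave 21.9 and 11.8 CPM. The cKO value was the lower of the pair in each class listed. Gria1 followed another order, with 146 and 135 CPM in Cajal-Retzius-like cells and 113 and 150 in interneuron-like cells but 35.8 and 24.5 in projection neuron-like cells. In a cluster of interneuron-like cells led by Maf and Lhx6 Gria1 exceeded Gria2 in both libraries, at 387 and 330 CPM against 320 and 265. Gria4 was at 74.5 and 50.9 CPM in Cajal-Retzius-like cells, 42.5 and 62.9 in interneuron-like cells and 55.1 and 30.3 in OPC-like cells. Gria3 peaked in OPC-like cells, at 120 CPM in the WT and 56.8 in the cKO library, 6.04 and 3.23 times its level in all other cells.

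The makeup of the AMPA family separated the classes. Gria2 took 88.9% of the Gria UMIs in WT projection neuron-like cells (88.3 to 89.4%, exact binomial) and 86.2% in cKO ones. In interneuron-like cells it took 72.9% (71.3 to 74.3%) and 53.6% (51.7 to 55.4%), with Gria1 at 18.4% and 29.5%. The interneuron value changed with the weights given to the clusters of the class. When the clusters of the class were given the same weights in both libraries, the cKO minus WT difference in the Gria2 share went from -19.3 to -7.81 percentage points. That setting also weighted clusters by cells in place of UMIs and left out clusters with under 20 cells in either library. The parts of these changes were not tested. In projection neuron-like cells the direction itself depended on the filter: with at least 1000 genes and at most 5% mitochondrial UMIs per cell, which left 329 WT and 379 cKO cells of the class, the difference was 3.66 points in place of -2.63.

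Among NMDA subunits Grin2b far exceeded Grin2a. Grin2b was at 235.2 CPM (228 to 242) in WT and 121 (116 to 126) in cKO projection neuron-like cells, at 101 and 68.9 in interneuron-like cells and at 172 and 106 in striatal neuron-like cells. Grin2a reached 29.4 and 21.7 CPM in projection neuron-like cells, its highest class. Grin2b thus made up 88.8% and 84.7% of the GluN2 UMIs there, and 96.1% and 91.5% in striatal neuron-like cells. In projection neuron-like cells the cKO minus WT difference in this share, -4.09 points, was -14.0 with the stricter filter on cells named above. Grin1, the obligatory subunit, was at 55.0 and 40.9 CPM in projection neuron-like cells and highest in Cajal-Retzius-like cells, at 93.1 and 106. In Cajal-Retzius-like cells Grin2a gave 0 UMIs in both libraries. Grin3a, a subunit that lowers calcium entry, was highest in OPC-like cells of the WT library at 85.8 CPM (73.2 to 99.9), where the cKO library had 23.5 (16.0 to 33.4). Grin2c and Grin2d reached at most 3.75 CPM in any class of 50 cells or more, and Grin3b gave 4 and 7 UMIs over all kept cells.

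Grik5, a high-affinity kainate receptor subunit, was the main Grik transcript in every neural class of at least 50 cells. It stood at 71.3 and 94.05 CPM in projection neuron-like cells, 62.9 and 82.9 in interneuron-like cells and 72.7 and 79.9 in radial glia/astrocyte-like cells. Among whole classes Grik2 was highest in striatal neuron-like cells (40.1 and 50.2 CPM), while a cluster of interneuron-like cells led by Maf and Lhx6 had 47.7 and 37.2. Grik1, which is known from interneurons, was at 11.3 and 14.4 CPM in interneuron-like cells, 3.30 and 7.24 times its level in all other cells, and at 13.0 and 6.82 in OPC-like cells. Grik3 was at 23.8 and 8.27 CPM in interneuron-like cells. Grik4 was highest in OPC-like cells of the WT library (30.2 CPM) but in intermediate progenitor-like cells of the cKO library (24.4 CPM, against 6.43 in the WT library). Grid1, a delta receptor gene whose product binds cerebellins, was highest in OPC-like cells. It reached 42.1 and 48.5 CPM there, 3.49 and 3.90 times its level in all other cells.

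Of the metabotropic receptors Grm5 had the highest count. It was at 291 CPM (272 to 312) and 189 (173 to 206) in striatal neuron-like cells, at 104 and 57.8 in projection neuron-like cells, and at 115 and 36.2 in radial glia/astrocyte-like cells. In group II, Grm3, known from astrocytes, was at 120 and 56.0 CPM in radial glia/astrocyte-like cells, where Grm2 had 2 and 1 UMIs, and at 29.3 and 24.6 in projection neuron-like cells, where Grm2 was at 17.4 and 7.58 CPM. Group III receptors were sparse. Grm7 had its highest level in striatal neuron-like cells, on 53 and 22 UMIs, and Grm8 reached at most 4.50 CPM in any whole class of 50 cells or more. Grm4 gave 163 and 27 UMIs over all kept cells, of which 47 and 9 were in striatal neuron-like cells. Grm6, the receptor of retinal bipolar cells, gave 3 and 2 UMIs.

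Among the GABAA alpha subunits Gabra2 and Gabra5 led in projection neuron-like cells. Gabra2 and Gabra5 were at 84.0 and 79.3 CPM in WT projection neuron-like cells and at 72.0 and 105 in cKO ones. Gabra5 was also high in striatal neuron-like cells, at 86.5 CPM (76.3 to 97.8) and 112 (99.8 to 125). Its share of the Gabra UMIs in projection neuron-like cells was 38.6% (37.1 to 40.1%) in the WT and 50.7% (49.1 to 52.2%) in the cKO library, and here too the stricter filter turned the difference, from 12.1 to -17.9 points. In radial glia/astrocyte-like cells Gabra4 took 59.8% and 58.1% of the alpha UMIs, at 36.8 and 24.1 CPM.

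The same glial class stood apart in the other GABAA families. Gabrb1 made up 92.8% and 83.4% of the beta UMIs in radial glia/astrocyte-like cells, at 138 and 67.5 CPM, and 28.6% and 17.7% in projection neuron-like cells. The head-to-head neighbours Gabra4 and Gabrb1 thus had their highest level in the same class in both libraries. Gabrg1 took 72.2% and 72.6% of the UMIs of the gamma, delta, epsilon, pi and theta subunits in radial glia/astrocyte-like cells, at 52.1 and 30.6 CPM. Among whole classes Gabrg3 was highest in striatal neuron-like cells (56.5 and 33.8 CPM), as was the extrasynaptic subunit Gabrd (9.76 and 19.3 CPM). A cluster of interneuron-like cells led by Maf and Lhx6 had more Gabrg3, at 68.7 and 50.4 CPM. Gabrb2 did not exceed 9.89 CPM in any whole class of 50 cells or more. Gabra6, a subunit of cerebellar granule cells, gave 3 and 2 UMIs in all, Gabre 12 and 10, Gabrq 32 and 3. No UMI of Gabrp or Gabrr3 was found in 52904238 and 52350151 UMIs, which allows up to 0.0567 and 0.0573 CPM, taken as 3 counts of the total. Gabrr1 gave 7 and 4 UMIs, of which 6 and 3 were in the 43 and 13 ependymal-like cells.

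**Figure D1:**
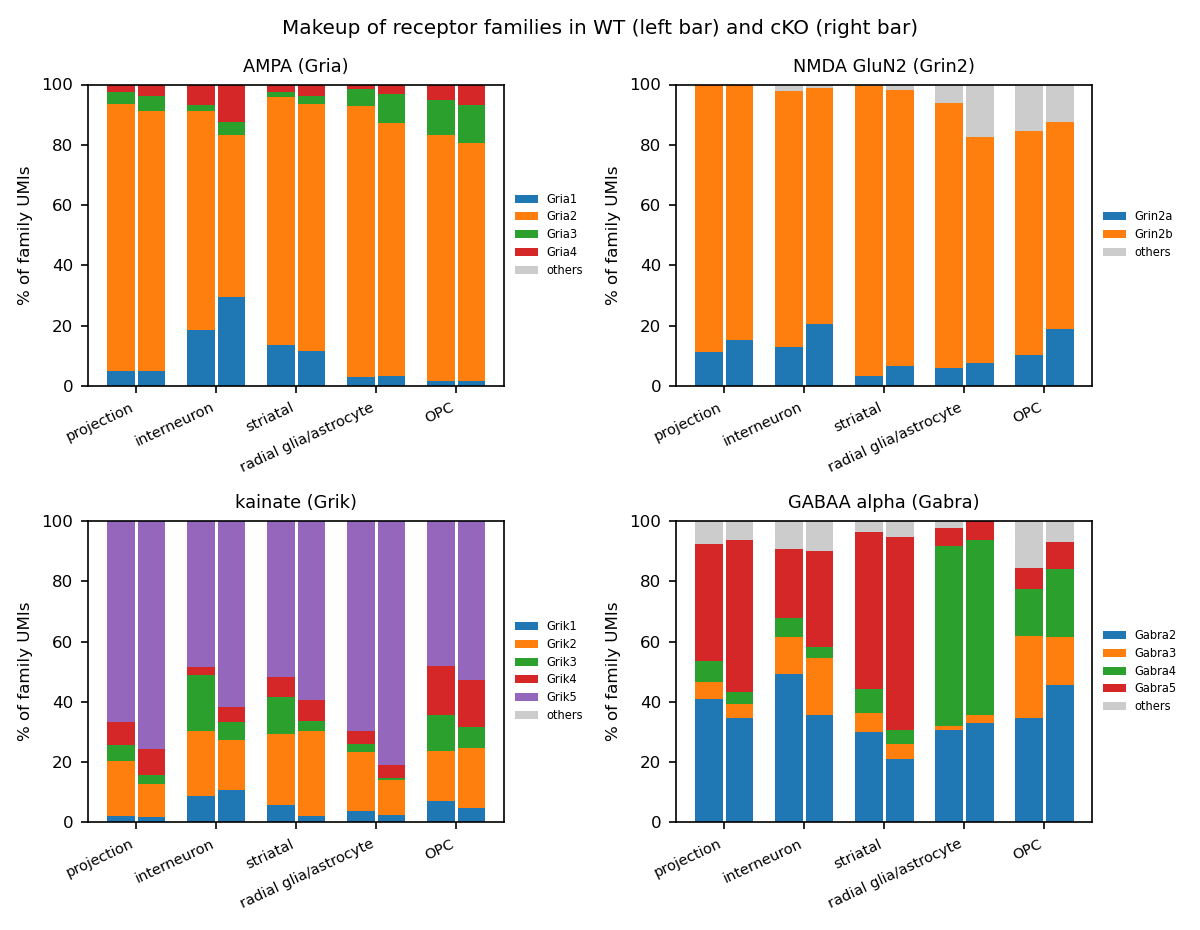
Share of the UMIs of 4 receptor families (y axis, percent) taken by each subunit in 5 classes, with the WT library as the left bar and the cKO library as the right bar of each pair; the remaining subunits are joined in grey as others. Gria2 fills most of the AMPA bars, down to 72.9% and 53.6% in interneuron-like cells, and Gabra4 takes 59.8% and 58.1% of the alpha UMIs in radial glia/astrocyte-like cells.

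GABAB receptors need both Gabbr1 and Gabbr2 to reach the surface and signal. Gabbr1 was at 202 and 188 CPM in projection neuron-like cells, 242 and 193 in interneuron-like cells, 267 and 217 in radial glia/astrocyte-like cells and 213 and 195 in OPC-like cells. It was lower in intermediate progenitor-like (173 and 117 CPM) and cycling progenitor-like cells (84.6 and 60.1). Gabbr2 was below Gabbr1 in each of these classes, at 60.9 and 65.5 CPM in projection neuron-like cells and 24.8 and 13.1 in radial glia/astrocyte-like cells. Gabbr1 made up 76.8% and 74.2% of their summed UMIs in projection neuron-like cells and 91.5% and 94.3% in radial glia/astrocyte-like cells.

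**Figure D2:**
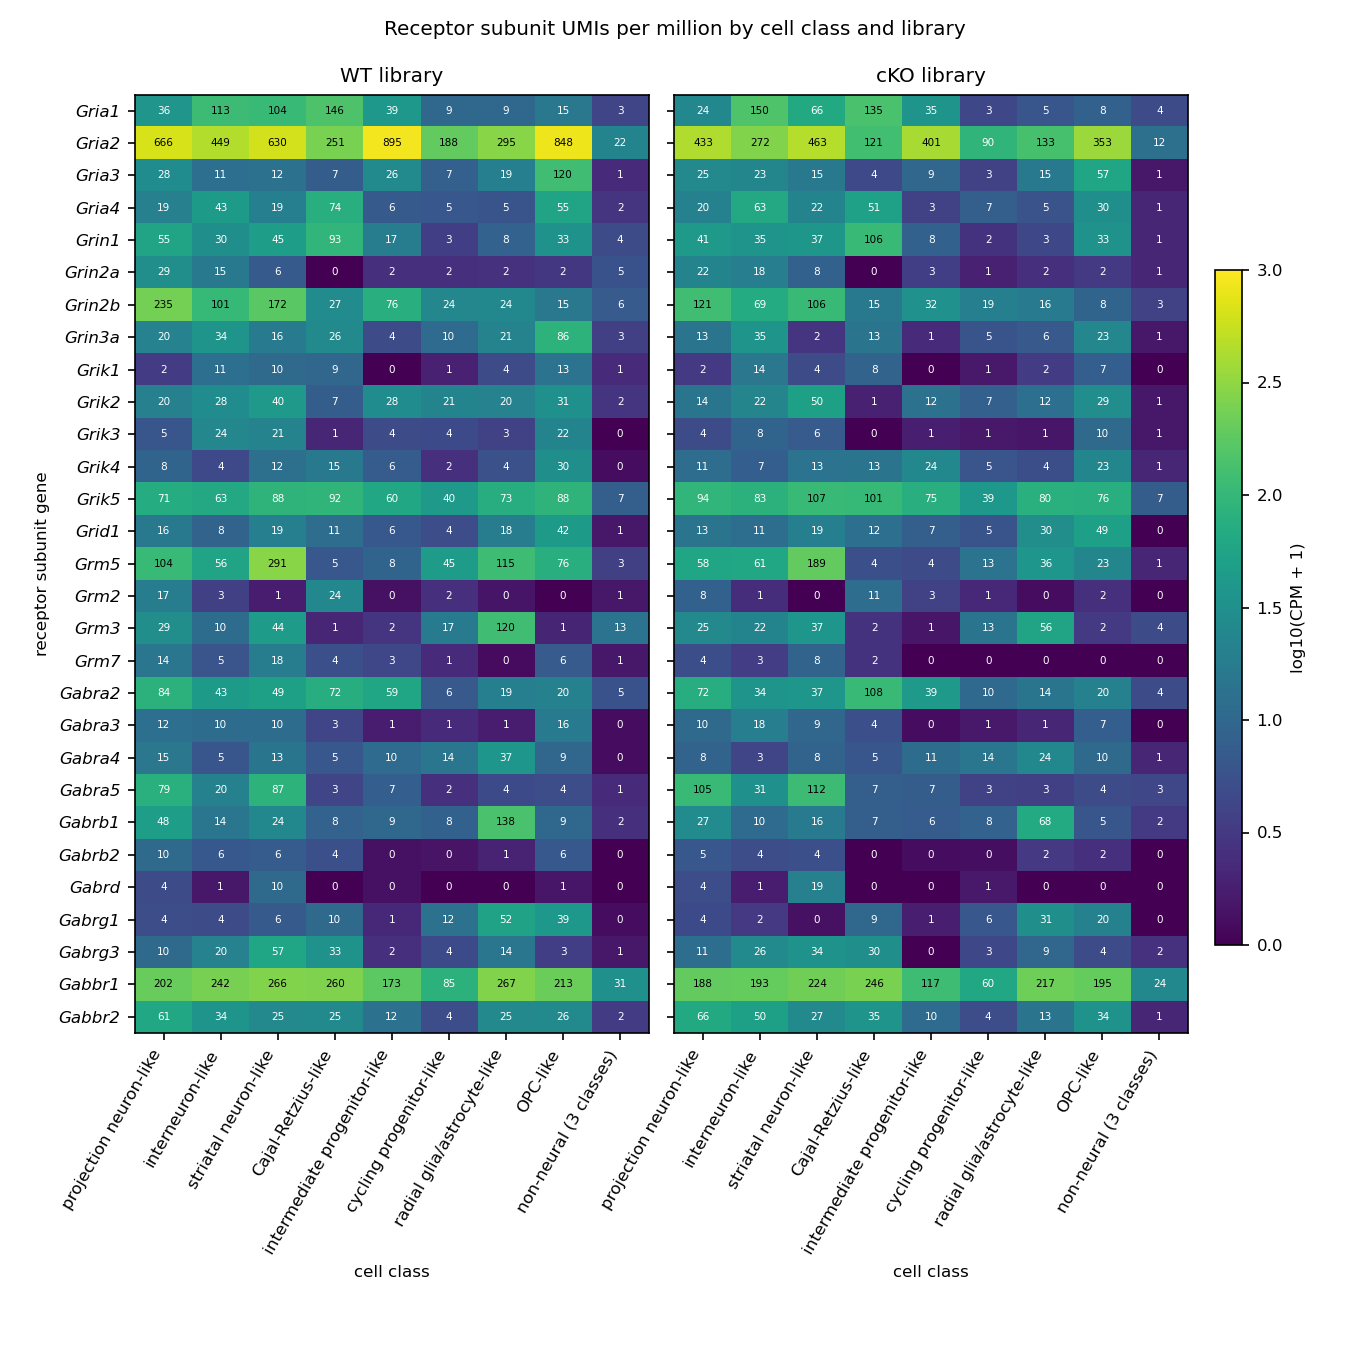
CPM of subunits with at least 50 UMIs in either library in 1 of the 6 compared classes, by cell class (columns) in the WT (left) and cKO (right) library, with colour on a log10(CPM + 1) scale and the rounded CPM printed in each cell. Gria2 and Gabbr1 are high in the neuron-like columns, and Gria3 and Grin3a in the OPC-like column of the WT library. In that library Gria2 is highest in the intermediate progenitor-like column and Gabbr1 in the radial glia/astrocyte-like column. The non-neural column joins endothelial-like, mural-like and microglia-like cells.

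For 35 subunits with at least 50 UMIs in each library the class of the highest level was compared over 9 classes of 50 cells or more. It was the same in both libraries for 24 of the 35 (68.6%), and the share was 62.1% over the 12355 genes treated the same way. Striatal neuron-like cells were highest in both libraries for 7 of them (among them Grm5, Grm7, Grik2, Gabra5, Gabrg3 and Gabrd), projection neuron-like cells for 6 (among them Grin2a, Grin2b, Gabrb2 and Gabbr2), radial glia/astrocyte-like cells for 4 (Grm3, Gabra4, Gabrb1 and Gabrg1), OPC-like cells for 3 (Gria3 and Grid1 among them), Cajal-Retzius-like cells for 3 (Grin1 and Grm2 among them) and interneuron-like cells for 1 (Grm8). Gria2 was highest in intermediate progenitor-like cells of the WT library and in striatal neuron-like cells of the cKO library. Where the highest class was not the same, the leading classes could be close, as for Grik5, at 92.0 CPM in Cajal-Retzius-like and 88.2 in striatal neuron-like cells of the WT library.

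Inside the projection neuron-like class, clusters were set apart as upper-layer (1336 WT and 1097 cKO cells) or deep-layer (346 and 441 cells) from layer markers. The score of upper-layer minus deep-layer markers ran from 0.28 to 1.851 in the upper-layer clusters and from -2.845 to -0.355 in the deep-layer ones. The largest deep-layer cluster, led by Tfap2d and Thsd7a, stood at -0.355, so the layer names give the closer match only. Deep-layer clusters had the higher level of Grin3a (63.8 and 29.9 CPM against 8.98 and 7.20 in upper-layer clusters), Grik3 (20.6 and 10.9 against 1.41 and 1.43), Gria3 (58.8 and 53.2 against 20.2 and 14.5) and Grm3 (60.6 and 46.2 against 21.2 and 16.8). Upper-layer clusters had the higher level of Gabra2 (95.2 and 81.4 CPM against 40.7 and 46.2) and Grm2 (20.3 and 8.49 against 6.45 and 5.05). Each of these orders held in both libraries. Gria2 was close between layers, at 661 and 435 CPM in upper-layer and 683 and 426 in deep-layer clusters. These genes were singled out after their values were seen.

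Subunits were next compared between the libraries in 6 classes, for genes with at least 50 UMIs of the class in either library. A difference is given as the log2 ratio of CPM, cKO over WT, and is called past 2-fold at 1 or more in size. In projection neuron-like cells the median log2 ratio of 33 subunits was -0.43, against -0.17 over all 11095 genes tested. No subunit was 2-fold higher in the cKO library, where 3.64% of all genes were. The 4 that were 2-fold lower (Grm7 and Grm2 among them), 4 of 33, stood beside 16.0% of all genes. The number lower was 7 of 24 with the stricter filter on cells (beside 15.9% of all genes in that setting) and 8 of 35 without centring genes within each library (beside 17.4%). Grm7, a presynaptic receptor, was at 13.9 CPM (12.3 to 15.7) in the WT and 4.24 (3.38 to 5.24) in the cKO library, a log2 ratio of -1.72. Grm2 had a ratio of -1.20, and of -0.91 with the mean of each cell's CPM. Grin2b was just inside the threshold at -0.96, with 4616 and 2421 UMIs behind it. Among the higher ones Gabra5 had a log2 ratio of 0.41 (0.32 to 0.51) and Grik5 of 0.40 (0.30 to 0.50). With the stricter filter on cells Gabra5 stood at -0.62. Its ratio was 0.55 (0.44 to 0.66) in upper-layer and -0.03 (-0.21 to 0.16) in deep-layer clusters. By receptor kind the summed ratio was -0.54 for ionotropic glutamate receptors, -0.82 for metabotropic ones, -0.19 for GABAA and -0.05 for GABAB receptors. With TMM scaling, which raised every ratio in this class, GABAB turned to 0.14 and GABAA came to -0.01. The median over subunits was -0.48 in upper-layer and -0.33 in deep-layer clusters, beside -0.17 and -0.08 over all genes tested there.

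In radial glia/astrocyte-like cells the median over 17 subunits was -0.74, beside -0.07 over 8727 genes. Of the 17, 5 were 2-fold lower in the cKO library (Grin3a, Grm5, Gria2, Grm3 and Gabrb1), beside 9.48% of all genes (3 beside 7.20% with TMM scaling), and 0 were 2-fold higher (3.07% of all genes). Of the 5, Grin3a passed the filter on its WT count alone. With at least 200 UMIs in either library 4 of 7 were 2-fold lower, beside 5.09% of all genes. Grm5 was at 115 CPM (105 to 126) and 36.2 (30.3 to 42.8), a log2 ratio of -1.67 (-1.95 to -1.39). Grin3a was at 21.2 (17.1 to 26.1) and 5.90 (3.70 to 8.93), and Gria2 at 295 (279 to 312) and 133 (121 to 145), a ratio that came inside 2-fold (-0.90) with the automatic doublet threshold. Grm3 and Gabrb1, both at their highest level in this class, had ratios of -1.10 and -1.03. Grid1 went the other way, at 17.9 CPM (14.1 to 22.4) and 29.8 (24.5 to 35.8), a ratio of 0.73. The summed level of the 12 marker genes of the class was 32961 CPM in the WT and 22726 in the cKO library. The class joined clusters of unlike size, with 287 WT and 149 cKO cells in the one led by Aqp4 and Pla2g7. The one led by Aldoc and Notch2 held 248 and 223. Whether the differences in marker level and in cluster makeup play a part in the subunit values was not tested.

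OPC-like cells gave a median of -0.41 over 15 subunits and -0.04 over 6345 genes. Grin3a, Grm5, Gria2 and Gria3 were 2-fold lower in the cKO library, 4 of 15 beside 9.87% of all genes, and none was 2-fold higher (3.45% of all genes). Of these, Grin3a and Grm5 passed the filter on their WT counts alone. With at least 200 UMIs in either library 2 of 4 were 2-fold lower, beside 6.23% of all genes. Grin3a had a log2 ratio of -1.87 (-2.47 to -1.31), Grm5 of -1.74 (-2.36 to -1.16) and Gria2 of -1.26 (-1.42 to -1.11). Grm5 was at 75.9 and 22.7 CPM. The median ranged from -0.97, over the 4 subunits with at least 200 UMIs, to -0.05 with each library clustered alone. Gria2 came to -0.69 with each library clustered alone and Grm5 to -0.73 with the stricter filter, both inside 2-fold. Grin1 was at 32.8 and 32.6 CPM and Gabbr1 at 213 and 195, so these were close between the libraries. The libraries held 341 WT and 192 cKO cells of the class, and its 8 markers summed to 6308 and 3943 CPM, whose part in these values was not tested.

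Progenitor-like cells joined an intermediate and a cycling kind, with 467 and 418 cells in the WT and 569 and 267 in the cKO library. In this class the median was -0.73 over 19 subunits and -0.05 over 9795 genes. Of the 19, 6 were 2-fold lower in the cKO library (among them Grm5, Gabrg1, Grin3a, Grik2 and Gria3), beside 12.5% of all genes. With the same makeup of clusters in both libraries 9 of the 19 were 2-fold lower (beside 12.5% of all genes there too), with a median of -0.55. With the stricter filter the median was 0.12 over 9 subunits, of which 2 were 2-fold lower (beside 9.71% of all genes), from 230 WT and 250 cKO cells. Grm5 was at 31.6 CPM (27.6 to 36.0) and 8.10 (6.16 to 10.4), a ratio of -1.96. Most of its UMIs came from cycling progenitor-like cells, at 45.0 and 12.8 CPM. Grik4 alone was 2-fold higher, as 4.25% of all genes were. Grik4 was at 3.32 CPM (2.13 to 4.95) in the WT and 15.4 (12.7 to 18.5) in the cKO library. This ratio of 2.21 (1.56 to 2.91) rested on 24 and 112 UMIs, so Grik4 passed the filter on its cKO count alone. With at least 200 UMIs in either library 0 of 6 subunits were 2-fold higher, beside 3.72% of all genes, and 1 was lower, beside 8.41%. Grik5 had a ratio of 0.30 (0.09 to 0.51).

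In striatal neuron-like cells the median was -0.35 over 22 subunits and -0.04 over 7112 genes. Grik3 (62 and 17 UMIs, ratio -1.76) and Grm7 (53 and 22 UMIs, ratio -1.16) were 2-fold lower, 2 of 22 beside 11.5% of all genes, and 0 were 2-fold higher beside 4.99%. Both passed the filter on their WT counts alone. With at least 200 UMIs in either library 0 of 8 were 2-fold lower, beside 6.84% of all genes. With TMM scaling 1 of 22 was 2-fold higher (Gabrd, at 1.10), beside 7.38%, and several other settings also gave 1. The number lower depended on the cells and clusters kept: it was 7 of 31 or 32 without a filter on cells, with Scrublet calls kept, with the automatic threshold or with clustering at resolution 0.5 or 2, beside 12.5% to 15.4% of all genes in these settings, and 5 of 28 by the highest marker score, beside 12.6%. The median went as low as -0.60 in these. The 12 markers of the class summed to 2166.3 CPM in the WT and 1595 in the cKO library, and their part in the subunit values was not tested. Grm5 had a ratio of -0.63 and Gabrg3 of -0.74 (-1.12 to -0.37). Gabra5 was higher at 0.37 (0.13 to 0.62), and Gabrd stood at 0.98 (0.30 to 1.69) on 29 and 53 UMIs. Grin3a, below the filter with 49 and 5 UMIs, was at 16.5 and 1.82 CPM.

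**Figure D3:**
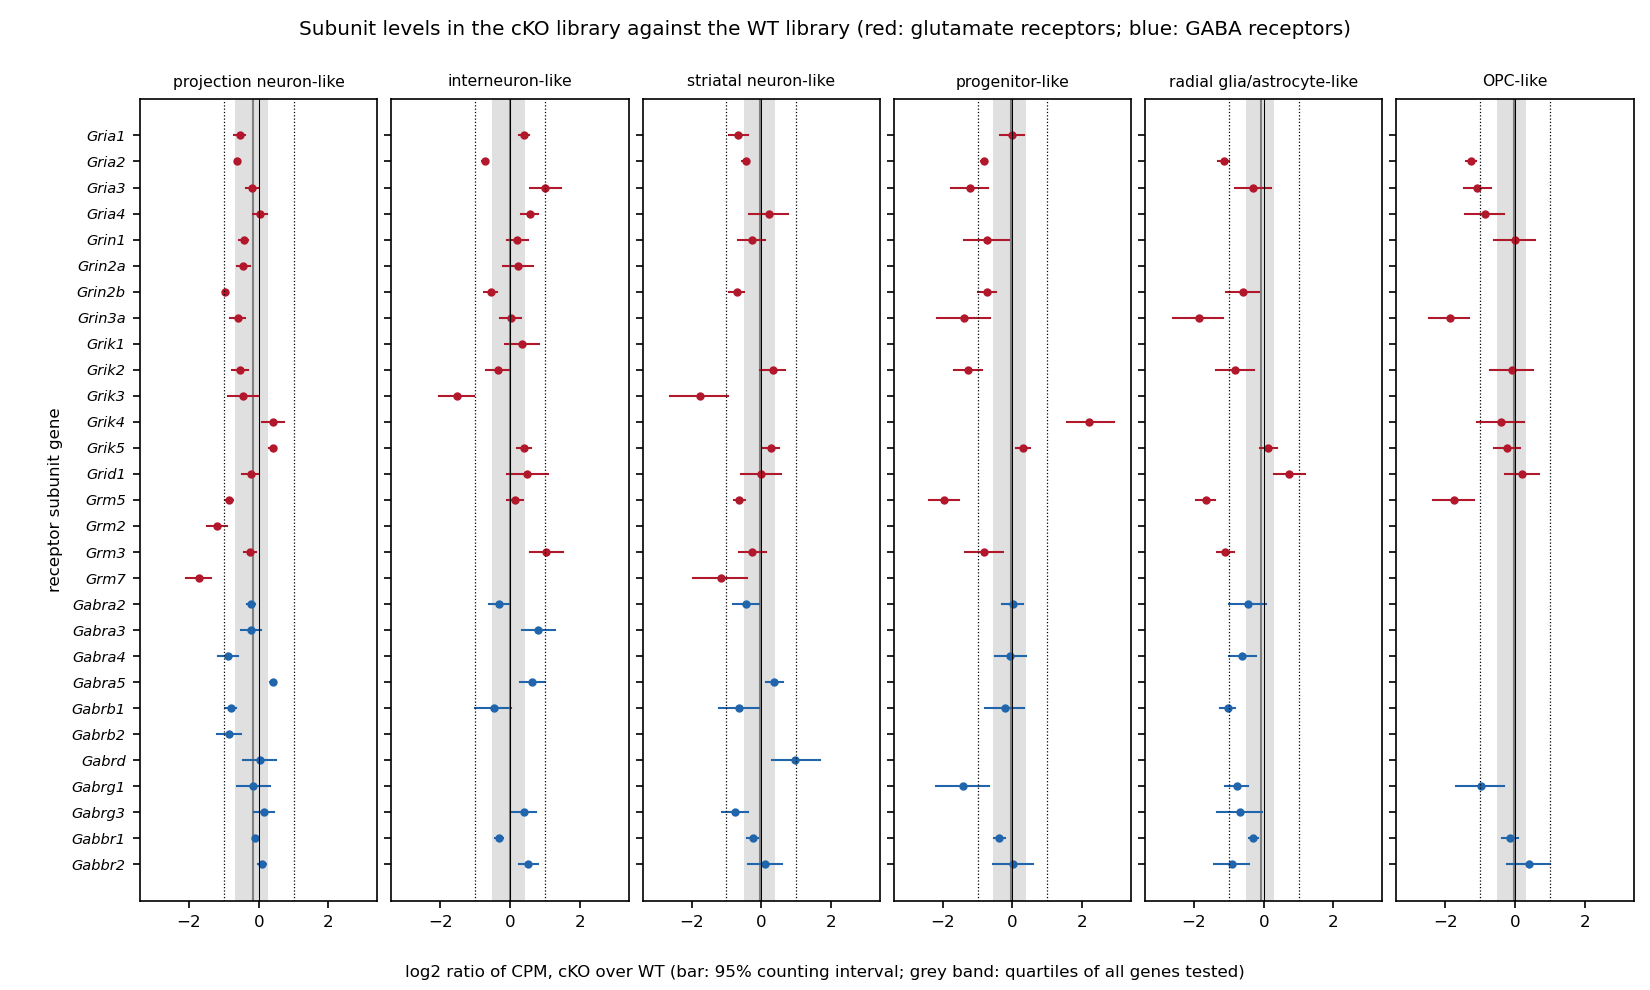
Log2 ratio of CPM, cKO over WT (x axis), for each subunit tested in 6 classes, with glutamate receptor genes in red and GABA receptor genes in blue, 95% counting intervals as bars, the quartiles of all genes tested as a grey band with their median as a line, and dotted lines at 2-fold. Grm5, Grin3a and Gria2 lie left of the dotted line in the radial glia/astrocyte-like and OPC-like panels, and Grik4 lies right of it in the progenitor-like panel.

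In interneuron-like cells the median had the other sign. Pooled, it was 0.29 over 26 subunits, beside -0.00 over 8834 genes, but it was -0.18 without a filter on cells and -0.18 with unnamed clusters joined to their best class, where 5 of 30 subunits were 2-fold lower (beside 14.6% of all genes). Grm3 and Gria3 were 2-fold higher (2 of 26, beside 5.09% of all genes) and Grik3 2-fold lower (1 of 26, beside 12.6%). Grik3 passed the filter on its WT count alone. With at least 200 UMIs in either library 0 of 11 were 2-fold higher, beside 4.00% of all genes, and 0 lower, beside 7.71%. Grm3 was at 10.4 CPM (7.93 to 13.5) and 21.6 (17.9 to 25.8), the X-linked Gria3 at 11.3 and 22.8, and the X-linked Gabra3 at 10.4 and 18.3, a ratio of 0.81. Grik3 had a ratio of -1.52 and Gria2 of -0.72.

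The class held 4 clusters with at least 20 cells in each library, and these were unlike in both size and receptor level. Cells led by Sp8 and Sp9 made up 45.3% of the WT and 22.4% of the cKO interneuron-like cells, and their 47 subunits summed to 1111 and 563 CPM. Cells led by Lhx6, Maf and Sst made up 15.4% and 31.9%, with 2388 and 2125 CPM. Cells led by Adarb2 and Htr3a summed to 1596 and 1220 CPM and those led by Foxp2 and Tshz1 to 1513 and 1163. The name of the class is less sure for the Foxp2 cluster, whose 10 leading genes held 1 marker of this class and 1 of another. Within each of the 4 clusters the median log2 ratio was below 0: -0.98 over 7 subunits, -0.07 over 22, -0.44 over 12 and -0.48 over 6, in the order named, beside -0.02, 0.08, 0.06 and 0.02 over all genes tested in them. With the same weights for the clusters in both libraries the median of the class was -0.23. In that setting 0 of 26 subunits were 2-fold higher (beside 4.91% of all genes) and 2 of 26 lower (beside 13.1%). Gria1 had a pooled ratio of 0.40 and was lower in the cKO library in all 4 clusters, at 387 and 330 CPM in the Lhx6 cluster and at 20.2 and 7.79 in the Sp8 cluster. Gria3 and Grm3, higher when pooled, were on few UMIs outside the Lhx6 cluster, where Gria3 stood at 0.89 and Grm3 at 0.39. Gria3 stood at -1.13 in the Sp8 and -1.86 in the Adarb2 cluster, and Grm3 at -1.83 and -1.08. With the same weights for the clusters the class ratio was 0.34 for Gria3 and 0.18 for Grm3. Gria2 was lower in the cKO library in all 4, from 542 and 204 CPM in the Sp8 cluster to 320 and 265 in the Lhx6 cluster.

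**Figure D4:**
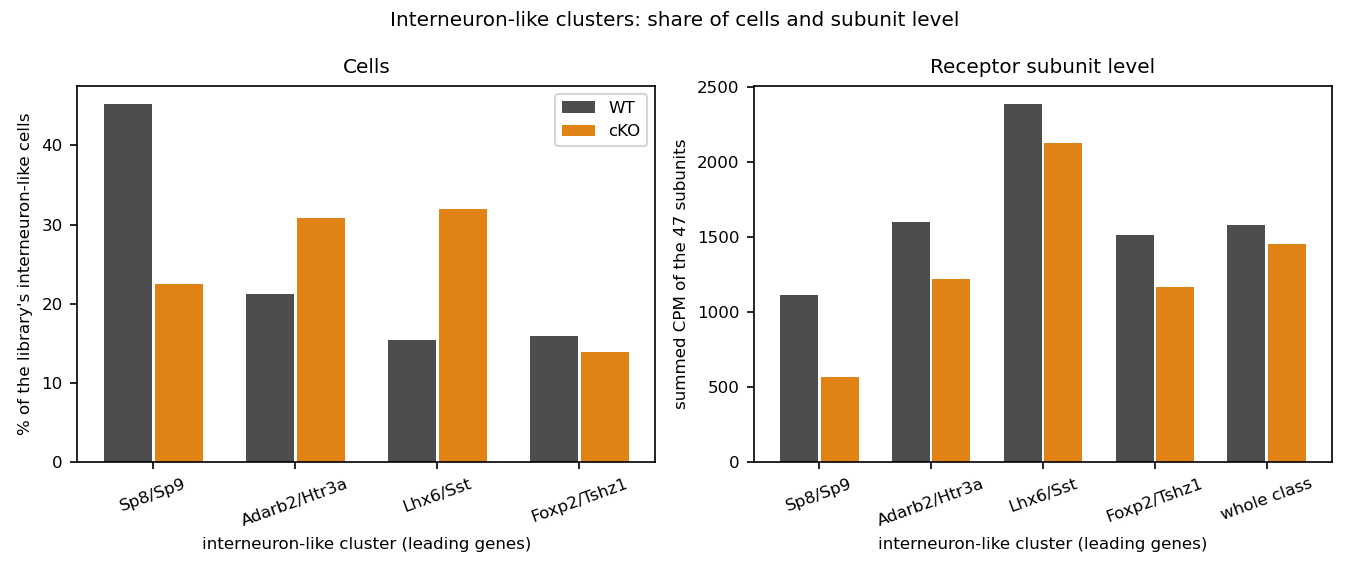
Left, share of each library's interneuron-like cells (y axis, percent) in the 4 clusters with at least 20 cells in each library; right, summed CPM of the 47 subunits in these clusters and in the whole class. The Sp8 cluster, with the lowest subunit level (1111 and 563 CPM), holds 45.3% of the WT and 22.4% of the cKO cells, and the cKO bar is the lower of the pair in every cluster.

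Over the 6 classes 34 subunits were tested in at least 1 and 6 in all. Of those 6, Gria2 and Gabbr1 were lower in the cKO library in every class (Gabbr1 with TMM scaling turned from -0.10 to 0.09 in projection neuron-like cells), beside 29.2% of the 5387 genes tested in all 6, and none was higher in every class, beside 26.9%. The classes share their libraries, so agreement between them is not repetition. Grin2b was lower in all 5 classes where it was tested (ratios from -0.96 to -0.55), as was Gabrb1 in all 5 of its classes. Gabra5 was higher in all 3 of its classes, although in projection neuron-like cells it turned with the stricter filter and stood at -0.03 in deep-layer clusters. Grik5 and Gabbr2 were higher in 5 of 6. Grm5 was lower in 5 of 6, with the pooled interneuron-like class at 0.14. The share of all genes with the same sign in 5 of 5, 3 of 3 or 5 of 6 classes was not computed. The pooled interneuron-like values did not always have the sign of their clusters. Grm5 was lower in the cKO library in all 4 clusters, with ratios of -1.76 in the Sp8, -1.53 in the Adarb2, -0.47 in the Lhx6 and -1.02 in the Foxp2 cluster. Gabra5, with a pooled ratio of 0.64, stood at -0.30, -0.32, 0.35 and 0.46 in the same order. Gabbr2 was likewise higher in 2 and lower in 2 of the clusters, as was Gabrb1, and Grik5 was higher in 3 of 4. Many of these cluster values rested on few UMIs, such as 17 and 7 for Gabra5 and 20 and 3 for Grm5 in the Sp8 cluster. For Gabra5, Gabrb1, Gabbr2 and Grik5 the counting intervals of the libraries overlapped in all 4 clusters, so their signs within clusters are not settled. For Grm5 the intervals overlapped in the Sp8 and Foxp2 clusters and were separate in the Adarb2 and Lhx6 clusters.

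The ratio also varied with gene length over all genes. Among all genes of over 300 kb the median log2 ratio was -0.29 in projection neuron-like cells (443 genes), -0.29 in radial glia/astrocyte-like cells (265 genes) and -0.41 in OPC-like cells (201 genes), while genes of 30 to 100 kb stood at -0.06, 0.02 and 0.04 and those under 10 kb at -0.31, -0.15 and -0.16. Subunits of over 300 kb had medians of -0.53 (15 subunits), -0.78 (8) and -0.36 (8) in these classes. In striatal neuron-like cells they stood at -0.62 (12 subunits) beside -0.32 over all such genes, and in progenitor-like cells at -0.11 (8) beside -0.22. In interneuron-like cells they had the other sign, 0.39 (13 subunits) beside -0.23. The part of gene length in the subunit values was not tested.

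Genes that work with the receptors were taken from a list of 47: auxiliary subunits and other receptor-binding proteins, cerebellins and synaptic scaffold proteins. In projection neuron-like cells 43 were tested, with a median log2 ratio of -0.03, 0 of them 2-fold higher (beside 3.64% of all genes) and 2 lower (Gphn and Dlgap2; beside 16.0%). Gphn encodes gephyrin, the scaffold of inhibitory synapses. It was at 57.3 and 26.7 CPM there (ratio -1.10) and was also 2-fold lower in striatal neuron-like (-1.49), progenitor-like (-1.55) and OPC-like cells (-1.79). Cnih2, an AMPA auxiliary protein with the highest level of the list in these cells, was at 616 and 698 CPM in projection neuron-like cells, and Neto2, its kainate counterpart, at 98.9 and 163. The AMPA auxiliary list also held Grip1, Grip2 and Pick1, whose proteins bind AMPA receptors but are not auxiliary subunits. Of its 13 genes tested in projection neuron-like cells 4 were higher and 5 lower in the cKO library with separate intervals, beside 26.6% and 43.3% of all genes. The higher ones were Cnih3 (ratio 0.76), Shisa6 (0.62), Shisa9 (0.56) and Cnih2 (0.18), and the lower ones Cacng8 (-0.94), Cacng3 (-0.84), Grip2 (-0.71), Pick1 (-0.52) and Cacng2 (-0.41). The other kainate auxiliary gene, Neto1, had a ratio of -0.42. The AMPA auxiliary gene Cacng4 was at 396 and 470 CPM in OPC-like cells, where Gria2 was lower in the cKO library. In interneuron-like cells the median was 0.15 over 38 partner genes, with 2 of them 2-fold higher and 6 lower, beside 5.09% and 12.6% of all genes. Striatal neuron-like cells had a median of -0.33 over 34, with 0 higher and 4 lower (4.99% and 11.5% of all genes). Progenitor-like cells had 0.12 over 27, with 1 higher and 4 lower (4.25% and 12.5%). Radial glia/astrocyte-like cells had -0.19 over 24, with 0 higher and 3 lower (3.07% and 9.48%), and OPC-like cells -0.24 over 18, with 0 higher and 1 lower (3.45% and 9.87%).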

How the data were processed

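Droplet libraries of papain-dissociated P0 cortex were counted by the authors. The deposited matrices hold raw UMI counts per gene and barcode, with no normalization. Their header names Cell Ranger 3.0.1, and the submitters' processing notes name STAR, Cell Ranger 2, Seurat and mm9. Annotation and strand are not given in the sources used here. A deposited matrix of both libraries, with the cKO depth reduced by the authors, served as an alternative. The authors' cluster comparisons (fold changes and p-values) were not used.

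Cells with at least 500 genes and at most 10% mitochondrial UMIs were kept (scanpy 1.11.5). The automatic threshold of Scrublet marked 165 WT and 0 cKO cells, so the highest scores were removed at 0.8% per 1000 cells, 366 and 296 cells. Counts scaled to 10000 per cell were log-transformed, 2000 variable genes without subunits, partner, sex-linked and technical genes were scaled within each library, and 30 principal components and 15 neighbours gave Leiden clusters (leidenalg 0.10.2, resolution 1). Clusters took the marker list of the highest score, or the list with at least 3 and the most of the 10 leading genes, and stayed unnamed with under 3 detected markers, leading genes of another class, or low depth. The leading-gene rule was set after the clusters were seen, and it renamed 1 cluster, from endothelial-like to mural-like.

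UMIs were summed per class and library. Ratios had exact conditional binomial and CPM exact Poisson 95% intervals, which cover counting error only. No test between libraries was made, with 1 library per group. The ratio step was tested on simulated data. Named by rule were the 2 subunits of each family with the largest UMI sums in neurons, the 3 highest and 3 lowest ratios per class among those with separate intervals, and per class the 3 highest ratios to other cells. Other subunits were named after their values were seen. Members, gene lists and comparisons were chosen with earlier results of these data known. edgeR 4.0.16 served for scaling factors alone. Some subunits are not reported here by name, and they stay in the totals, counts and medians.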

Additional observations from a re-analysis of the deposited data

How the results depend on the processing

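No paired analysis was possible because each genotype has 1 library and no test was made. Under 17 alternatives, 2 of them chosen after the data were seen (the automatic threshold of Scrublet and unnamed clusters joined to their best class), the median log2 ratio of the subunits stayed below 0 in projection neuron-like (-0.56 to -0.24) and radial glia/astrocyte-like cells (-1.03 to -0.56). In interneuron-like cells it turned from 0.29 to -0.18 without a filter on cells, to -0.23 with the same makeup of clusters in both libraries and to -0.18 with unnamed clusters joined. The number of subunits past 2-fold in projection neuron-like cells moved from 4 of 33 to 7 of 24 with the stricter filter on cells. In that setting 8.42% of all genes were 2-fold higher and 15.9% lower. It was 8 of 35 without centring genes within each library (beside 4.52% and 17.4% of all genes). In interneuron-like cells it moved from 3 of 26 to 1 of 26 with the mean of each cell's CPM or the automatic threshold. Of all genes 6.32% were 2-fold higher and 12.7% lower in the first of these settings, and 5.18% and 12.4% in the second. It was 5 of 30 with unnamed clusters joined (beside 4.27% and 14.6%). In radial glia/astrocyte-like cells it moved from 5 of 17 to 3 of 17 with TMM scaling (beside 4.71% and 7.20%). TMM shifted the median of all genes from -0.17 to 0.02, -0.00 to 0.08 and -0.07 to 0.06 in these classes.

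The Gria2 share of the Gria UMIs (cKO minus WT, percentage points) in projection neuron-like cells, -2.63 as reported, was 3.66 with the stricter filter, which kept 329 WT and 379 cKO cells of the class, -0.43 without centring, -4.15 with each library clustered alone and -1.67 with the same makeup. In interneuron-like cells, -19.3 as reported, it was -12.4 without a filter, -22.0 with the stricter one, -15.9 with the mean of each cell's CPM and -7.81 with the same makeup. The Grin2b share in projection neuron-like cells, -4.09 as reported, was -14.0 with the stricter filter, -6.70 with the mean of each cell's CPM and -5.84 with unnamed clusters joined. The Gabra5 share there, 12.1 as reported, was -17.9 with the stricter filter, 7.62 without centring, 14.6 with each library alone, 9.50 by the highest marker score and 8.73 with unnamed clusters joined. The causes of these moves were not tested. Of 377 values for the 26 differences of named subunits, 353 stayed inside the counting interval, 24 moved outside it and 376 kept their sign. The exception in sign was Gabra5 (-0.62) in projection neuron-like cells with the stricter filter. These 26 differences were picked as the highest or lowest ratios with separate intervals in these same data. The alternatives also reuse the same libraries, so a kept sign is not independent support.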
